A study of Mus musculus with 14 samples.

Results

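The complement and coagulation proteins described here are plasma proteins of innate defence and blood clotting that the liver makes, together with their main inhibitors. Their genes were taken from a fixed list of 44 symbols, and a gene was kept where the annotation of the array gave at least 1 probe set that symbol alone. That held for 40 of the 44 genes, out of 12394 genes with such a probe set on the array, and each gene is given by its brightest probe set (highest mean intensity, all 14 arrays). C3, Cfd and Cpb2 had no probe set under their symbol and C4b shared its only probe set with C4a, so these 4 were not analysed here. All 40 genes passed the filter on dim probe sets.

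Liver RNA of C57BL/6J mice with diet-induced obesity had been hybridised to a 1-colour Affymetrix mouse array, 1 array per sample. The Jnk1 shRNA group (n = 5) had received an adenovirus (Adv-shRNA in the labels) carrying a short hairpin RNA against Jnk1, the stress-activated kinase encoded by Mapk8. The GFP shRNA group (n = 4, numbered 1, 2, 3 and 5) had received the same kind of virus with a hairpin against green fluorescent protein, a sequence that mice lack, and the vehicle group (n = 5) had received vehicle in place of virus. All 3 groups share the strain and the obesity, so no lean liver entered any comparison. The sources used here give no age, sex, dose or time after injection, and do not say whether each sample came from its own mouse. The p-values therefore measure the spread between these samples, which may be technical. The series is titled a liver-specific knockdown, and the hairpin acts in whichever liver cells the virus entered. Whole pulverized liver was measured, so fewer cells of a type and less RNA per cell cannot be told apart.

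Complement is a chain of plasma proteins started by antibody through C1q, by microbial sugars through the mannose-binding lectins and their proteases, or spontaneously through factor B and properdin. All 3 routes lead to cleavage of C3 and C5 and to a pore built from C5b, C6, C7, C8 and C9. Clotting runs through serine proteases that cut one another until thrombin turns fibrinogen into fibrin, and plasmin, made from plasminogen, dissolves fibrin again. Hepatocytes make nearly all of these proteins, C1q is made mainly by macrophages, and several clotting proteases and anticoagulants need vitamin K to become functional.

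A pair of promoters is shown for each of 2 gene pairs whose genes are closely related or adjacent and gave calls of opposite sign. F10 and Proz, described below, are also adjacent with calls of opposite sign, and their promoters are not shown. Each sequence is the 250 bases before the annotated transcription start on the gene's own strand, from RefSeq on GRCm38.p6. Mbl1 lies at chr14:41151206-41151455 on the plus strand and Mbl2 at chr19:30232678-30232927 on the plus strand. The capitals mark the longest run of bases common to both, CTGGGGTTGAAGG, which begins 23 bases before the start in Mbl1 and 57 bases before it in Mbl2. It is held by 3 of 32851 mouse promoters (0.0091%). The run was chosen from this pair, so Mbl1 and Mbl2 are among the 3 and the share is no test of it.
Mbl1: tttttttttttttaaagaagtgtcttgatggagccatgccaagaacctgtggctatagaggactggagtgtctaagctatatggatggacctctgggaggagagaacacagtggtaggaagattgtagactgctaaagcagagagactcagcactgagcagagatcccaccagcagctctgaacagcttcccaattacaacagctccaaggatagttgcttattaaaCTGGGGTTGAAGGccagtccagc
Mbl2: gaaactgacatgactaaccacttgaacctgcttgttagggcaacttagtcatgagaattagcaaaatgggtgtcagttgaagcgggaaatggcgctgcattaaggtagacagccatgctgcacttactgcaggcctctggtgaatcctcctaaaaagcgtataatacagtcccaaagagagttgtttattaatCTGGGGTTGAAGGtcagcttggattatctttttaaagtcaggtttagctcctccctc

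F11 and Klkb1 are neighbours on chromosome 8 with 0 protein-coding genes between them. The F11 window is chr8:45262032-45262281 and the Klkb1 window is chr8:45294836-45295085, both on the minus strand. The capitals mark a match to the C/EBP motif TTGCNNAA, read on the reverse strand in both, 17 bases before the start in F11 and 177 bases before it in Klkb1, and in Klkb1 also a reverse-strand match to the TATA motif TATAAA at 132 bases.
F11: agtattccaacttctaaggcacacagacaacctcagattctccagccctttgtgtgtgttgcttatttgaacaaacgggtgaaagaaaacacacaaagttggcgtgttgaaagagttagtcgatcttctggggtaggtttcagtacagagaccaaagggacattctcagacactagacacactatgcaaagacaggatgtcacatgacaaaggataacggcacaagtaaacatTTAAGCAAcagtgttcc
Klkb1: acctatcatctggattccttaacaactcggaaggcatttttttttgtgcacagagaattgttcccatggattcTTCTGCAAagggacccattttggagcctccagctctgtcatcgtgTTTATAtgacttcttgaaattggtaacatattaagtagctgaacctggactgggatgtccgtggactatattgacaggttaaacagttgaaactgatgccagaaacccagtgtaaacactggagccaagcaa

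Of the 44 genes, 34 had a promoter window that could be searched, on both strands. C/EBP matches (TTGCNNAA) were found in 7 of the 34 (C3, C9, F11, F9, Fga, Fgb and Klkb1), beside 9.56% of all 32851 promoter windows. AP-1 matches (TGANTCA), the motif bound by the Jun proteins that Jnk kinases phosphorylate, were found in 3 of the 34 (C8g, F2 and Fgb), beside 6.75% of all windows. After quantile normalization none of these 3 genes was called between Jnk1 shRNA and either control group. Of all probe sets 33.1% were called against GFP shRNA and 37.6% against vehicle, and 3 genes are too few to compare with these shares. With the arrays as deposited, F2 and Fgb were called lower against GFP shRNA and all 3 were called lower against vehicle. Matches to the HNF1 motif, of a hepatocyte factor, were found in C4bp, F13b and Hc, beside 0.371% of all windows, an HNF4 match (CAAAGTNCA) in F9, beside 1.19%, and TATA matches in Hc, Klkb1 and Vtn, beside 12.4%. A match in these letters is a description and not a bound site.

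The hairpin's target was checked first. On its brightest probe set, Mapk8 read 65.5, 58.8, 82.2, 68.2 and 63.2 on the Jnk1 shRNA arrays, against 162, 166, 182 and 159 on the GFP shRNA arrays and 186, 184, 149, 185 and 185 on the vehicle arrays. Every Jnk1 shRNA array lay below every control array on this probe set, as labelled. A dimmer Mapk8 probe set gave −1.12 ± 0.22 against GFP shRNA (adjusted p = 0.000819) and −1.01 ± 0.20 against vehicle (adjusted p = 0.000881), also without overlap. The remaining one was not called against GFP shRNA, where the groups overlapped (−0.12 ± 0.14, adjusted p = 0.561). Its level was lower than in vehicle livers, at −0.51 ± 0.14 (adjusted p = 0.00696). Intensities are in the arbitrary units of the deposited values after quantile normalization. Array 2 of the GFP shRNA group stood apart, with a deposited median of 58.3 against 45.8 to 47.8 on the other 3 arrays of its group. The bacterial spike-in probe sets were dimmer and more variable on the Jnk1 shRNA arrays, at 8.39 ± 0.32 (SD, n = 5, log2 intensity) against 8.89 ± 0.07 (n = 4) on the GFP shRNA arrays and 8.90 ± 0.09 (n = 5) on the vehicle arrays. The brightest deposited intensity was 4332 to 5522 on the Jnk1 shRNA arrays, 6528 to 8293 on the GFP shRNA arrays and 6105 to 8401 on the vehicle arrays. The ratio of the 3′ to the 5′ Gapdh control probe set, a sign of RNA integrity and labelling, was 0.708 to 0.758 on the Jnk1 shRNA arrays, 0.656 to 0.698 on the GFP shRNA arrays and 0.668 to 0.750 on the vehicle arrays, so the Jnk1 shRNA arrays lay above all GFP shRNA arrays and overlapped vehicle. The part of RNA quality in the results was not tested.

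Against GFP shRNA, 21 of the 40 genes were called changed in Jnk1 shRNA livers at a limma adjusted p under 0.05 (Benjamini-Hochberg over all 13575 probe sets tested), 5 higher and 16 lower. Over all probe sets 33.1% were called in this comparison, 17.3% higher and 15.8% lower, against 52.5% of the complement and coagulation genes. Plasma protein genes are bright in liver, and bright probe sets were called more often: of the 993 probe sets with a mean log2 intensity of at least 10, a limit chosen after the values were seen, 49.6% were called, beside 14 of the 25 complement and coagulation genes in that range (56.0%). The share of calls is thus close to that of other bright probe sets. The direction was less even, with 10 of those 25 genes lower and 4 higher, where the bright probe sets as a whole had 24.1% lower and 25.6% higher. The 2 groups did not overlap on 20 of the 40 genes, beside 28.1% of all probe sets. The median log2 difference was −0.08 over the 40 genes and −0.01 over all probe sets. In absolute size the median of the 40 was 0.28, with 21 genes under 0.3, and 3 genes passed 2-fold with a call. A fit adjusted for the spike-in level took the calls over all probe sets to 2349 in place of 4497, and 14 of the 21 genes kept their call. Cfi, Klkb1, F9, F10, F13b, Proc and Pros1 lost it, and C1qa and C1qc were called lower.

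Against vehicle, 21 of the 40 genes were also called in Jnk1 shRNA livers, 7 higher and 14 lower, beside 37.6% of all probe sets (18.9% higher and 18.7% lower). Of the 25 bright complement and coagulation genes, 13 were called (52%), 5 higher (20%) and 8 lower (32%). The bright probe sets as a whole had 54.8% called (27.3% higher and 27.5% lower), so the lean to lower was smaller here than against GFP shRNA. Groups did not overlap on 19 genes, beside 27.7% of all probe sets, and the median difference was −0.06 against −0.02 overall. With the arrays as deposited, 3 genes were higher and 24 lower than in vehicle livers, and same-median scaling gave 3 higher and 15 lower. In the fit adjusted for the spike-in level 4 were higher and 12 lower (3013 calls over all probe sets in place of 5099), and C2, Cfi, Klkb1, F10 and Pros1 lost their calls. The 2 comparisons share the Jnk1 shRNA arrays, so they are not independent of each other. Between the GFP shRNA and vehicle livers, 2 of the 40 genes were called, C2 higher and Masp1 lower, beside 2.58% of all probe sets (2.05% higher and 0.53% lower). Of the bright probe sets, 3.52% were called there (2.72% higher), beside 0 of the 25 bright complement and coagulation genes by limma, with 2 at an unadjusted p under 0.05. Here the groups did not overlap on 3 genes, beside 6.3% of all probe sets.

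**Figure D1:**
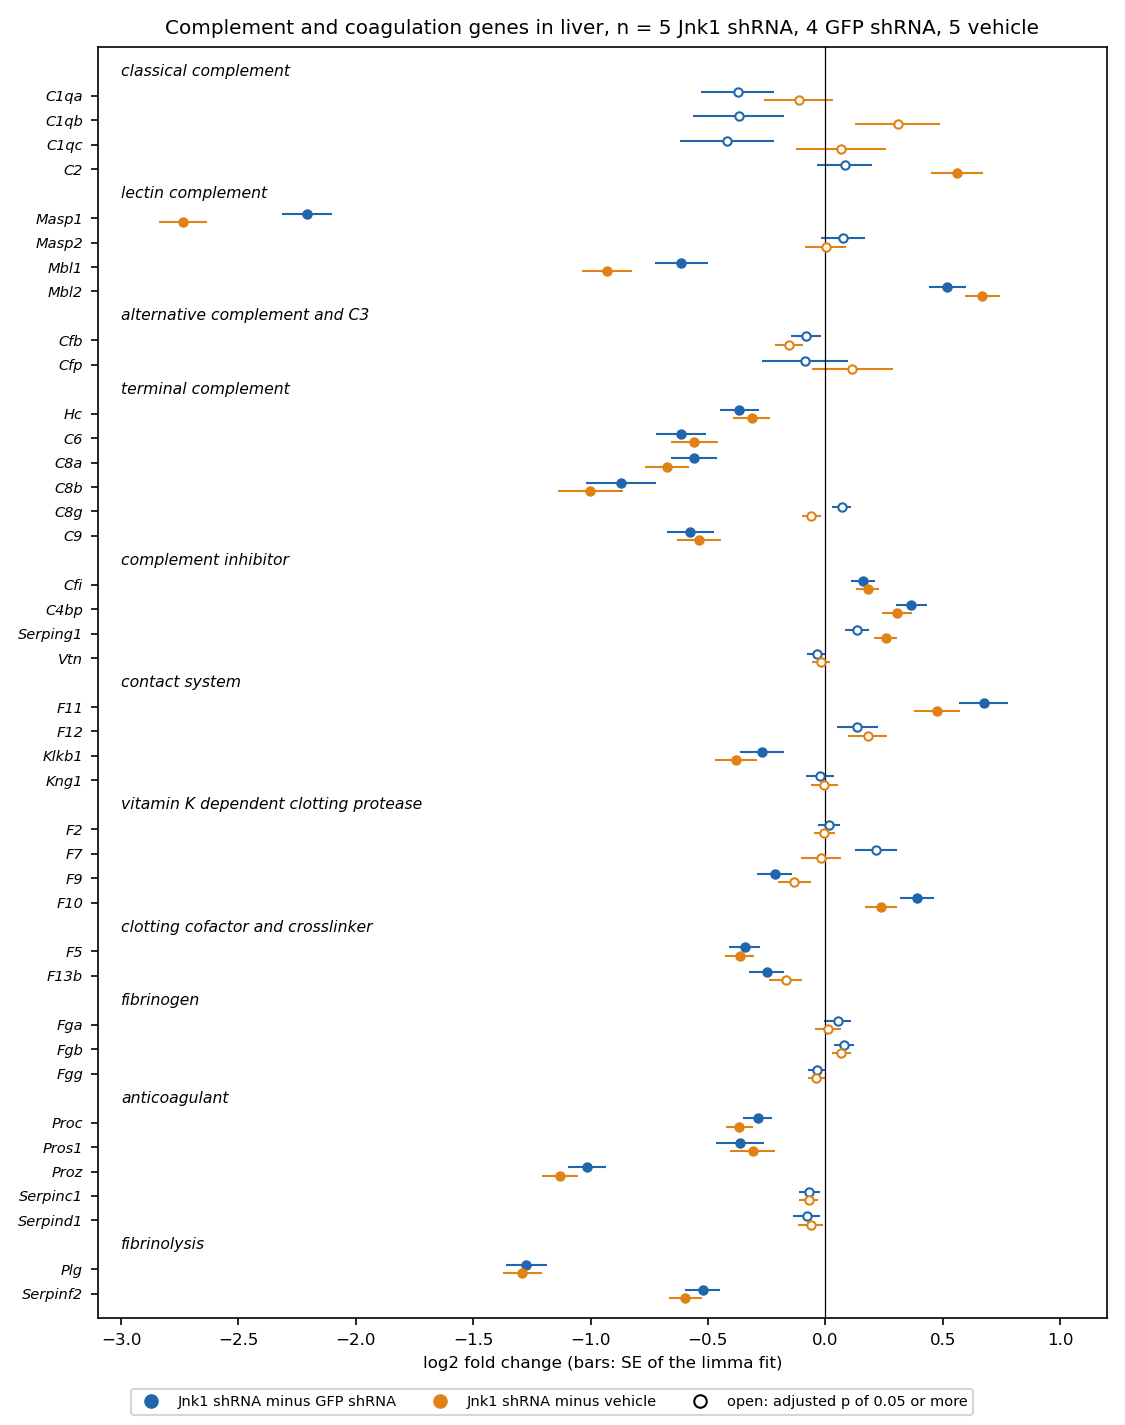
Log2 fold changes of the 40 genes, grouped by role, in Jnk1 shRNA livers (n = 5) minus GFP shRNA (n = 4, blue) and minus vehicle (n = 5, orange). Bars are the standard error of the limma fit and open points have an adjusted p of 0.05 or more. Masp1, Plg, Proz and C8b lie farthest to the left, and F11 and Mbl2 farthest to the right.

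The lectin route held the largest change of the set and 2 genes that moved in opposite directions. Masp1, which encodes the protease that rides on mannose-binding lectins and starts this route, read 90.6, 84.9, 82.6, 77.2 and 80.9 on the Jnk1 shRNA arrays, against 446, 372, 377 and 348 on the GFP shRNA arrays and 532, 696, 470.4, 546 and 549.6 on the vehicle arrays. The 3 groups did not overlap, with Jnk1 shRNA lowest and vehicle highest. Masp1 lay 4.62-fold below its GFP shRNA level (log2 difference −2.21 ± 0.11 SE, limma adjusted p = 1.44e-09) and 6.67-fold below its vehicle level (−2.74 ± 0.10, adjusted p = 1.24e-10). It was also lower in GFP shRNA than in vehicle livers (−0.53 ± 0.11, adjusted p = 0.0124), a call that was lost without array 5 of the GFP shRNA group (−0.48, adjusted p = 0.0544).

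Masp1 gives several proteins by alternative splicing, and it had 5 probe sets. The values above are from the brightest, with a mean intensity of 339. The next, with a mean of 178, fell by 0.57 ± 0.11 against GFP shRNA (adjusted p = 0.000745) and by 0.52 ± 0.10 against vehicle (adjusted p = 0.000638). The probe sets with means of 141 and 57.8 were not called, at −0.24 ± 0.21 (adjusted p = 0.407) and −0.27 ± 0.17 (adjusted p = 0.243) against GFP shRNA, and the dimmest did not pass the filter. So the size of the Masp1 difference depended on the probe set, and the sources used here do not say which transcripts each one reads. Under the alternative that takes the median over a gene's probe sets, with a call where most of them were called and no p of its own, all 3 Masp1 calls were lost. The Jnk1 shRNA difference was then −0.42 from GFP shRNA and −0.33 from vehicle, and GFP shRNA against vehicle turned to 0.07.

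Masp2 encodes the protease that then cuts C4 and C2, and its 2 probe sets disagreed. The brighter, with a mean of 601, was not called in any comparison, with a difference of 0.08 ± 0.09 against GFP shRNA (95% interval −0.12 to 0.27). The dimmer, with a mean of 235, spanned 93.4 to 158 on the Jnk1 shRNA arrays, 258 to 313 on the GFP shRNA arrays and 268 to 339 on the vehicle arrays. It fell by 1.17 ± 0.13 against GFP shRNA (adjusted p = 4.51e-06) and by 1.31 ± 0.12 against vehicle (adjusted p = 4.02e-07), without overlap. Masp2 is counted above by its brighter probe set and so as not called.

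The mannose-binding lectins, which recognise sugars on microbes, changed in opposite directions. Mbl1 read 588, 374, 499.7, 513 and 470.4 in Jnk1 shRNA livers, against 711, 761, 701 and 790.0 in GFP shRNA livers and 800.2, 1086, 978, 855 and 921 in vehicle livers. Every Jnk1 shRNA array lay below every control array, and Mbl1 fell by 0.61 ± 0.11 against GFP shRNA (adjusted p = 0.000578) and by 0.93 ± 0.11 against vehicle (adjusted p = 4.25e-06). With arrays scaled to the same median the first of these became −0.40 (adjusted p = 0.0537, the highest over the alternatives that give a p). Mbl2 read 3084, 3719.6, 3965, 3908 and 3627 in Jnk1 shRNA livers, against 2320.3, 2724, 2548 and 2597 in GFP shRNA livers and 2513, 2279, 2395, 2001 and 2315 in vehicle livers. Here every Jnk1 shRNA array lay above every control array, and Mbl2 rose by 0.52 ± 0.08 against GFP shRNA (adjusted p = 9.86e-05) and by 0.67 ± 0.07 against vehicle (adjusted p = 3.11e-06). Mbl2 kept its call under all 25 alternatives in both comparisons. The promoters of these 2 genes share the 13-base run shown above.

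**Figure D2:**
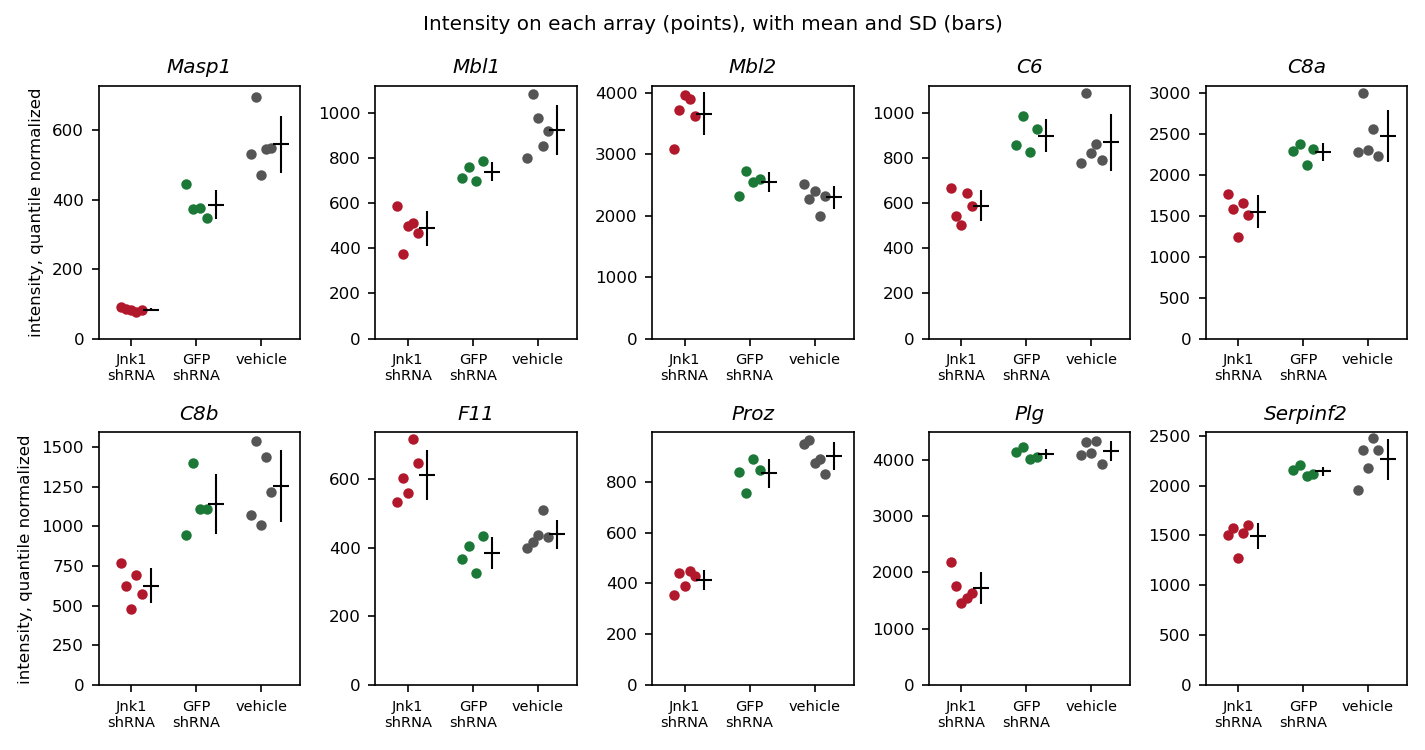
Quantile-normalized intensity on each array (points) with the group mean and SD (black), for the 10 genes called in any comparison with a log2 difference of at least 0.58. Each panel has its own scale from 0, with Jnk1 shRNA (n = 5) on the left, GFP shRNA (n = 4) in the middle and vehicle (n = 5) on the right. In all 10 genes the Jnk1 shRNA points lie wholly below or wholly above both control groups.

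In the terminal route, 5 of 6 genes fell in both comparisons (83.3%), and 0 were called higher. Of all probe sets 15.8% were lower against GFP shRNA and 18.7% against vehicle, and of the bright ones 24.1% and 27.5%. C6, the first protein to join C5b in the pore, read 666, 541, 502, 646 and 586 in Jnk1 shRNA livers, against 855, 984, 824 and 928 in GFP shRNA livers and 779, 1088, 821, 863 and 789 in vehicle livers. The Jnk1 shRNA arrays were all lower than the controls, and C6 fell by 0.62 ± 0.11 against GFP shRNA (adjusted p = 0.000323) and by 0.56 ± 0.10 against vehicle (adjusted p = 0.00033). The control groups overlapped each other.

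C8 is made of 3 chains, and the 2 that are encoded side by side on chromosome 4 fell while the third did not pass the test after quantile normalization. C8a read 1768, 1587, 1244, 1659.7 and 1511 in Jnk1 shRNA livers, against 2288, 2384, 2124 and 2315 in GFP shRNA livers and 2282, 3002, 2305, 2566 and 2229.9 in vehicle livers. It fell by 0.56 ± 0.10 (adjusted p = 0.000385) against GFP shRNA and by 0.67 ± 0.09 (adjusted p = 2.85e-05) against vehicle. Array 3 of the Jnk1 shRNA group was the lowest for C8a, and it was also the lowest for C8b. C8b read 768, 621, 479, 690.4 and 575 in Jnk1 shRNA livers, against 946, 1402, 1109 and 1112 in GFP shRNA livers and 1070.2, 1538, 1011, 1435 and 1219 in vehicle livers. It fell by 0.87 ± 0.15 (adjusted p = 0.000306) against GFP shRNA and by 1.00 ± 0.14 (adjusted p = 3.45e-05) against vehicle, and neither gene's Jnk1 shRNA arrays overlapped a control. C8g, the gene of the third chain, spanned 2840.1 to 3128 in Jnk1 shRNA livers, 2716 to 2847 in GFP shRNA livers and 3006 to 3089 in vehicle livers. Its difference was 0.07 ± 0.04 (95% interval −0.02 to 0.16) against GFP shRNA and −0.06 ± 0.04 (−0.14 to 0.02) against vehicle. With the arrays as deposited, C8g was called lower against vehicle and not against GFP shRNA, so its contrast with C8a and C8b depended on the scaling there.

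C9, which polymerises to form the pore, spanned 1530.1 to 2030.4 in Jnk1 shRNA livers, 2384 to 2711 in GFP shRNA livers and 2217 to 3144 in vehicle livers. It fell by 0.57 ± 0.10 (adjusted p = 0.000375) against GFP shRNA and by 0.54 ± 0.09 (adjusted p = 0.00029) against vehicle. Hc, the mouse gene of C5, spanned 1567 to 1965 in Jnk1 shRNA livers, 2155 to 2445 in GFP shRNA livers and 2028 to 2706 in vehicle livers, and fell by 0.37 ± 0.08 (adjusted p = 0.00318) against GFP shRNA and by 0.31 ± 0.08 (adjusted p = 0.00487) against vehicle. With arrays scaled to the same median the Hc difference from GFP shRNA was −0.26 (adjusted p = 0.134, the highest over the alternatives that give a p). C6, C8a, C8b and C9 kept their calls against GFP shRNA under all 25 alternatives.

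Of the 4 complement inhibitors among the 40 genes, 2 rose and 0 fell against GFP shRNA, and 3 rose and 0 fell against vehicle. These were 50% and 75%, beside 17.3% and 18.9% of all probe sets called higher. All 4 were bright, and of the bright probe sets 25.6% and 27.3% were called higher. Outside the 40 genes the inhibitor Susd4 fell in both comparisons, and so did Cpn2, as given below. C4bp, whose product binds C4b and helps to destroy it, had a median of 2650.3 in Jnk1 shRNA livers, against 2056 in GFP shRNA livers and 2068 in vehicle livers. It rose by 0.37 ± 0.07 (adjusted p = 0.000467) against GFP shRNA and by 0.31 ± 0.06 (adjusted p = 0.000966) against vehicle. Cfi, the protease that cuts C3b and C4b, rose by 0.16 ± 0.05 (adjusted p = 0.0215) against GFP shRNA and by 0.18 ± 0.05 (adjusted p = 0.00682) against vehicle, but with the arrays as deposited these differences were −0.06 against GFP shRNA and −0.09 against vehicle. The Cfi call against GFP shRNA was also lost without array 1 of the GFP shRNA group (0.14). Serping1, the inhibitor of C1 and of the contact proteases, rose by 0.26 ± 0.05 against vehicle (adjusted p = 0.000484) and differed by 0.13 ± 0.05 from GFP shRNA (adjusted p = 0.0544). With the arrays as deposited, neither C4bp (0.13, adjusted p = 0.205, at most 0.340 over its alternatives that give a p) nor Serping1 (0.01, adjusted p = 0.949, the highest of these) was called against vehicle. Vtn, vitronectin, which keeps the pore from inserting, was not called, at −0.04 ± 0.04 against GFP shRNA and −0.02 ± 0.04 against vehicle.

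The 2 genes of the alternative route were not called by limma in any comparison, and 1 of them, Cfb against vehicle, had an unadjusted p under 0.05. Shares of all probe sets called were 33.1% against GFP shRNA, 37.6% against vehicle and 2.58% between the controls. Cfb, factor B, spanned 1351 to 1483 in Jnk1 shRNA livers, 1415 to 1525 in GFP shRNA livers and 1365 to 1698 in vehicle livers, with differences of −0.08 ± 0.06 from GFP shRNA and −0.16 ± 0.06 from vehicle (adjusted p = 0.0535). Cfp, properdin, made largely by leukocytes, was the dimmest of the 40 genes, with medians of 117 in Jnk1 shRNA livers, 122 in GFP shRNA livers and 107 in vehicle livers.

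In the classical route, 0 of 4 genes were called by limma between Jnk1 shRNA and GFP shRNA, and 1 had an unadjusted p under 0.05. Of all probe sets 33.1% were called in this comparison. C2, the protease that joins C4b to form the C3-cutting enzyme, had medians of 462 in Jnk1 shRNA livers, 441 in GFP shRNA livers and 289 in vehicle livers. It was higher than vehicle in Jnk1 shRNA livers (0.56 ± 0.11, adjusted p = 0.000737) and in GFP shRNA livers (0.48 ± 0.12, adjusted p = 0.0397), and the viruses differed by 0.08 ± 0.12 (95% interval −0.16 to 0.33). The GFP shRNA call on C2 was lost in 15 of 25 alternatives, among them leaving out array 3, 4 or 5 of Jnk1 shRNA, 2, 3 or 5 of GFP shRNA, or 1, 3, 4 or 5 of vehicle, with differences from 0.40 to 0.57 over all arrays left out.

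The C1q genes, adjacent on chromosome 4, encode the 3 chains of the molecule that binds antibody. C1qa had medians of 296 in Jnk1 shRNA livers, 394 in GFP shRNA livers and 314 in vehicle livers, C1qb had 295 in Jnk1 shRNA, 418 in GFP shRNA and 271 in vehicle, and C1qc had 266 in Jnk1 shRNA, 376 in GFP shRNA and 283 in vehicle. Differences of Jnk1 shRNA from GFP shRNA were −0.37 ± 0.16 (adjusted p = 0.0775), −0.37 ± 0.19 (adjusted p = 0.159) and −0.42 ± 0.20 (adjusted p = 0.125), so none passed. The other 2 probe sets of C1qb did pass, at −0.47 ± 0.15 (adjusted p = 0.0234) and −0.39 ± 0.11 (adjusted p = 0.0138), and the last of these was also higher in GFP shRNA than in vehicle livers (0.55 ± 0.11, adjusted p = 0.0136). On the brightest C1qb probe set, array 5 of the GFP shRNA group read 297 while the other 3 read 414 to 434.

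Macrophage markers also differed between the groups, though not always in parallel with C1q. Of 17 macrophage markers tested, 13 were lower and 0 higher in Jnk1 shRNA than in GFP shRNA livers (76.5% called, beside 33.1% of all probe sets). Against vehicle, 6 were lower and 3 higher in Jnk1 shRNA livers (52.9%, beside 37.6%). In GFP shRNA livers 6 were higher and 2 lower than in vehicle livers (47.1%, beside 2.58%). The summed intensity of the 19 markers on the array was 4044 to 4838 in Jnk1 shRNA livers, 6780 to 8003 in GFP shRNA livers and 4147 to 7198 in vehicle livers. The summed C1q intensity was 779 to 1128 in Jnk1 shRNA livers, 1001 to 1310 in GFP shRNA livers and 580 to 1169 in vehicle livers. Its median was 858 in Jnk1 shRNA and 844 in vehicle livers, where the marker sum had medians of 4243 and 5471. No marker on the array was listed at 0, and they did not move as 1 block. Mpeg1, of macrophages in general, was lower in Jnk1 shRNA than in GFP shRNA livers (−1.30 ± 0.16, adjusted p = 1.68e-05) and higher in GFP shRNA than in vehicle livers (1.56 ± 0.16, adjusted p = 2.81e-05). Clec4f, a marker of the liver's resident macrophages, was lower in GFP shRNA than in vehicle livers (−1.98 ± 0.14, adjusted p = 6.34e-07). Its Jnk1 shRNA differences are not given here, so this value does not set the GFP virus apart from the Jnk1 virus. Between Jnk1 shRNA and vehicle livers the smallest limma adjusted p of the 17 markers was 1.88e-09. Vsig4, a complement receptor of resident macrophages that binds C3b, fell by 3.04 ± 0.17 in Jnk1 shRNA livers against vehicle (adjusted p = 3.18e-09) and was lower in GFP shRNA than in vehicle livers (−2.06 ± 0.18, adjusted p = 5.11e-06). The part of macrophage number in the C1q values was not tested.

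**Figure D3:**
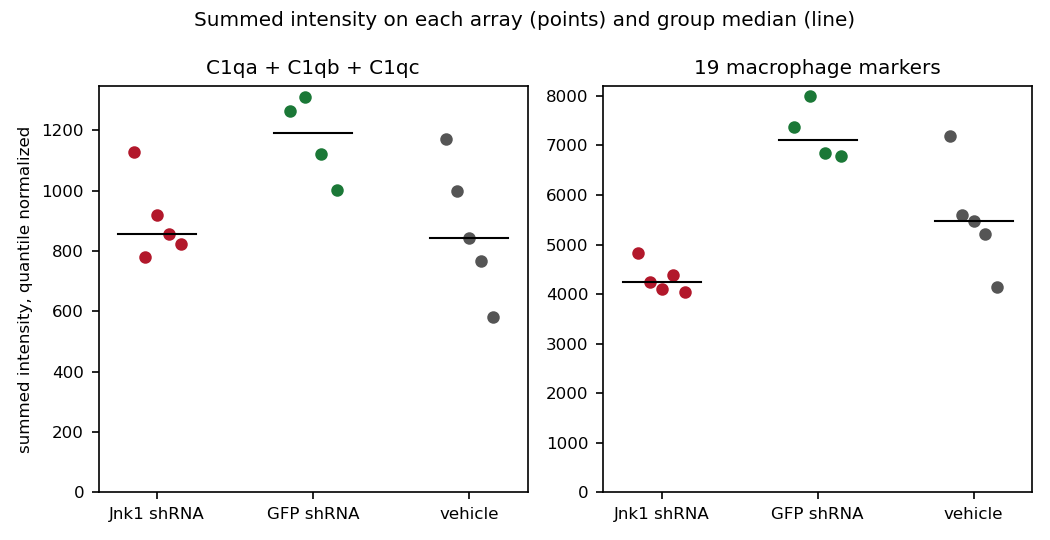
Summed quantile-normalized intensity on each array (points) and group median (line), for C1qa, C1qb and C1qc on the left and for 19 macrophage markers on the right, in Jnk1 shRNA (n = 5), GFP shRNA (n = 4) and vehicle (n = 5) livers. The GFP shRNA arrays lie above all Jnk1 shRNA arrays in the marker sum, from 6780 upward against at most 4838, while the C1q sums overlap.

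Of the contact system, which starts clotting on surfaces, F11 rose and its neighbour Klkb1 fell. F11, whose product activates factor IX, read 535, 603, 559, 716 and 647 in Jnk1 shRNA livers, against 366, 405, 328 and 435 in GFP shRNA livers and 400.5, 416, 437, 510.1 and 432 in vehicle livers. All Jnk1 shRNA arrays were above all controls, by 0.67 ± 0.10 (adjusted p = 0.000123) against GFP shRNA and 0.48 ± 0.10 (adjusted p = 0.00111) against vehicle. Klkb1, plasma prekallikrein, spanned 831 to 1183 in Jnk1 shRNA livers, 1144 to 1413 in GFP shRNA livers and 1283 to 1477 in vehicle livers. It fell by 0.27 ± 0.09 (adjusted p = 0.0368) against GFP shRNA and by 0.38 ± 0.09 (adjusted p = 0.00281) against vehicle, and the first call was lost in 11 of 25 alternatives, among them leaving out array 1 or 3 of the GFP shRNA group or array 3 or 4 of the Jnk1 shRNA group (−0.32 to −0.19 over all arrays left out). The promoters of F11 and Klkb1, which both hold a C/EBP match, are printed above.

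F12, the protease that starts contact clotting, was not called (0.14 ± 0.09 against GFP shRNA and 0.18 ± 0.08 against vehicle). Kng1, kininogen, was not called on its brighter probe set (−0.02 ± 0.06 against GFP shRNA), while its dimmer probe set fell, at −0.22 ± 0.06 against GFP shRNA (adjusted p = 0.0104) and −0.36 ± 0.06 against vehicle (adjusted p = 0.000117). The mouse has a close copy of this gene, Kng2, and whether both probe sets read Kng1 alone is uncertain.

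Of the 4 vitamin K dependent proteases of clotting, 1 rose and 1 fell against GFP shRNA (50% called, beside 33.1% of all probe sets). Against vehicle 1 rose and 0 fell (25% called, beside 37.6%). F10, which converts prothrombin to thrombin, had medians of 1563 in Jnk1 shRNA livers, 1185 in GFP shRNA livers and 1296 in vehicle livers. It rose by 0.39 ± 0.07 (adjusted p = 0.000653) against GFP shRNA and by 0.24 ± 0.07 (adjusted p = 0.0113) against vehicle, and its other 2 probe sets also rose against GFP shRNA, by 0.51 ± 0.16 (adjusted p = 0.0244) and 0.41 ± 0.11 (adjusted p = 0.00971). Against vehicle these gave 0.58 ± 0.15 (adjusted p = 0.00679) and 0.24 ± 0.11 (adjusted p = 0.0824, not called). On every F10 probe set the Jnk1 shRNA and vehicle arrays overlapped. F9, the factor lacking in haemophilia B, fell by 0.22 ± 0.07 against GFP shRNA (adjusted p = 0.0348), with −0.13 ± 0.07 against vehicle (adjusted p = 0.155). The F9 call was lost in 11 of 25 alternatives, among them leaving out array 1, 3 or 5 of the GFP shRNA group or array 3 or 5 of the Jnk1 shRNA group (−0.27 to −0.19 over all arrays left out). F7, which pairs with tissue factor, was not called (0.22 ± 0.09 against GFP shRNA, adjusted p = 0.0746, and −0.02 ± 0.08 against vehicle), and F2, prothrombin, differed by 0.02 ± 0.05 from GFP shRNA (95% interval −0.08 to 0.12).

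F7, F10 and Proz lie in that order on chromosome 8 with 0 protein-coding genes between neighbours, and in Jnk1 shRNA livers F10 rose and Proz fell. Proz, protein Z, is the vitamin K dependent cofactor of a factor Xa inhibitor. It read 355, 441, 389.6, 450.0 and 429.5 in Jnk1 shRNA livers, against 837, 757, 890.0 and 847 in GFP shRNA livers and 947, 963, 874, 890.5 and 830.4 in vehicle livers. All Jnk1 shRNA arrays were far below all controls. Proz fell to 49.5% of its GFP shRNA level (−1.01 ± 0.08, adjusted p = 2.14e-07) and to 45.7% of its vehicle level (−1.13 ± 0.08, adjusted p = 1.78e-08). Its second, dimmer probe set differed from GFP shRNA by −0.30 ± 0.12 (adjusted p = 0.0608) and from vehicle by −0.52 ± 0.11 (adjusted p = 0.0015), so its size too depended on the probe set, and with the median over both the call against GFP shRNA was lost (−0.66). The gene of the inhibitor that protein Z serves, Serpina10, fell by 0.26 ± 0.08 (adjusted p = 0.0192) against GFP shRNA and by 0.25 ± 0.08 (adjusted p = 0.0169) against vehicle. It was picked out after its values were seen. Its call against GFP shRNA was lost without array 3 of Jnk1 shRNA or array 2 or 5 of GFP shRNA (−0.33 to −0.20 over all arrays left out), and that against vehicle without array 4 of vehicle (−0.28 to −0.20).

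The other anticoagulants fell by less or were not called. Proc, protein C, which inactivates factors Va and VIIIa, fell by 0.29 ± 0.06 (adjusted p = 0.00202) against GFP shRNA and by 0.37 ± 0.06 (adjusted p = 0.000116) against vehicle. Pros1, its cofactor protein S, was dim in these livers, with medians of 164 in Jnk1 shRNA, 227 in GFP shRNA and 205 in vehicle, and fell by 0.36 ± 0.10 (adjusted p = 0.0113) against GFP shRNA and by 0.31 ± 0.10 (adjusted p = 0.0173) against vehicle. Array 2 of the GFP shRNA group read 174 for Pros1 while the other 3 read at least 224. The thrombin inhibitors Serpinc1, antithrombin, and Serpind1, heparin cofactor II, were not called, with differences of −0.07 ± 0.04 and −0.08 ± 0.06 from GFP shRNA. Proc and Pros1 lost their calls against GFP shRNA with arrays scaled to the same median, at −0.11 (adjusted p = 0.567) and −0.19 (adjusted p = 0.329), each the highest over the gene's alternatives that give a p.

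F5, the cofactor of factor Xa, and F13b, the carrier of the enzyme that crosslinks fibrin, both fell against GFP shRNA. F5 spanned 872 to 1092 in Jnk1 shRNA livers, 1262 to 1289 in GFP shRNA livers and 1249 to 1386 in vehicle livers. It fell by 0.34 ± 0.07 (adjusted p = 0.000758) against GFP shRNA and by 0.36 ± 0.06 (adjusted p = 0.00021) against vehicle, and its second probe set gave −0.32 ± 0.07 against GFP shRNA (adjusted p = 0.00228) and −0.34 ± 0.07 against vehicle (adjusted p = 0.000639). F13b fell by 0.25 ± 0.07 against GFP shRNA (adjusted p = 0.0156), with −0.17 ± 0.07 against vehicle (adjusted p = 0.0679). With arrays scaled to the same median the differences from GFP shRNA were −0.17 for F5 (adjusted p = 0.323) and −0.06 for F13b (adjusted p = 0.743), again the highest over the alternatives that give a p.

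The fibrinogen genes, neighbours on chromosome 3 that encode the 3 chains of the clot's building block, were not called, and 0 of them had an unadjusted p under 0.05 in any limma comparison after quantile normalization. Of all probe sets 33.1% were called against GFP shRNA and 37.6% against vehicle. Fgb spanned 5593 to 6148 in Jnk1 shRNA livers, 5429 to 5827 in GFP shRNA livers and 5407 to 5880.4 in vehicle livers, with a difference of 0.08 ± 0.04 (95% interval −0.01 to 0.17) from GFP shRNA. Fga differed by 0.05 ± 0.06 (−0.07 to 0.18) and Fgg by −0.03 ± 0.04 (−0.12 to 0.05). With the arrays as deposited, which differed in their brightest values as given above, Fgb fell, at −0.37 (adjusted p = 0.00485), and so did Fgg, at −0.35 (adjusted p = 0.00697). The adjusted p against GFP shRNA reached at most 0.660 for Fgb and 0.707 for Fgg over the alternatives that give one, and against vehicle all 3 were called lower as deposited, Fga at −0.29, Fgb at −0.40 and Fgg at −0.38. Whether fibrinogen differed thus depended on the scaling.

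Both genes of fibrinolysis fell, although 1 promotes and the other restrains the removal of fibrin. Calls of lower made up 15.8% of all probe sets against GFP shRNA and 18.7% against vehicle. Of the bright probe sets, to which both genes belong, they made up 24.1% and 27.5%. Plg, plasminogen, read 2183, 1755, 1452, 1554 and 1634 in Jnk1 shRNA livers, against 4133, 4223, 4019 and 4048 in GFP shRNA livers and 4091, 4314, 4123, 4341 and 3922 in vehicle livers. The control groups overlapped and every Jnk1 shRNA array lay far below them. Plg fell to 41.4% of its GFP shRNA level (−1.27 ± 0.09, adjusted p = 4.68e-08) and to 40.9% of its vehicle level (−1.29 ± 0.08, adjusted p = 9.55e-09). Serpinf2, α2-antiplasmin, the main plasmin inhibitor, read 1504, 1574, 1277, 1524 and 1609 in Jnk1 shRNA livers, against 2159, 2202, 2099 and 2121 in GFP shRNA livers and 1954, 2354, 2176, 2473 and 2361 in vehicle livers. It fell by 0.52 ± 0.07 (adjusted p = 5.94e-05) against GFP shRNA and by 0.60 ± 0.07 (adjusted p = 5.92e-06) against vehicle, again without overlap. Both genes kept their calls under all 25 alternatives in both comparisons.

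**Figure D4:**
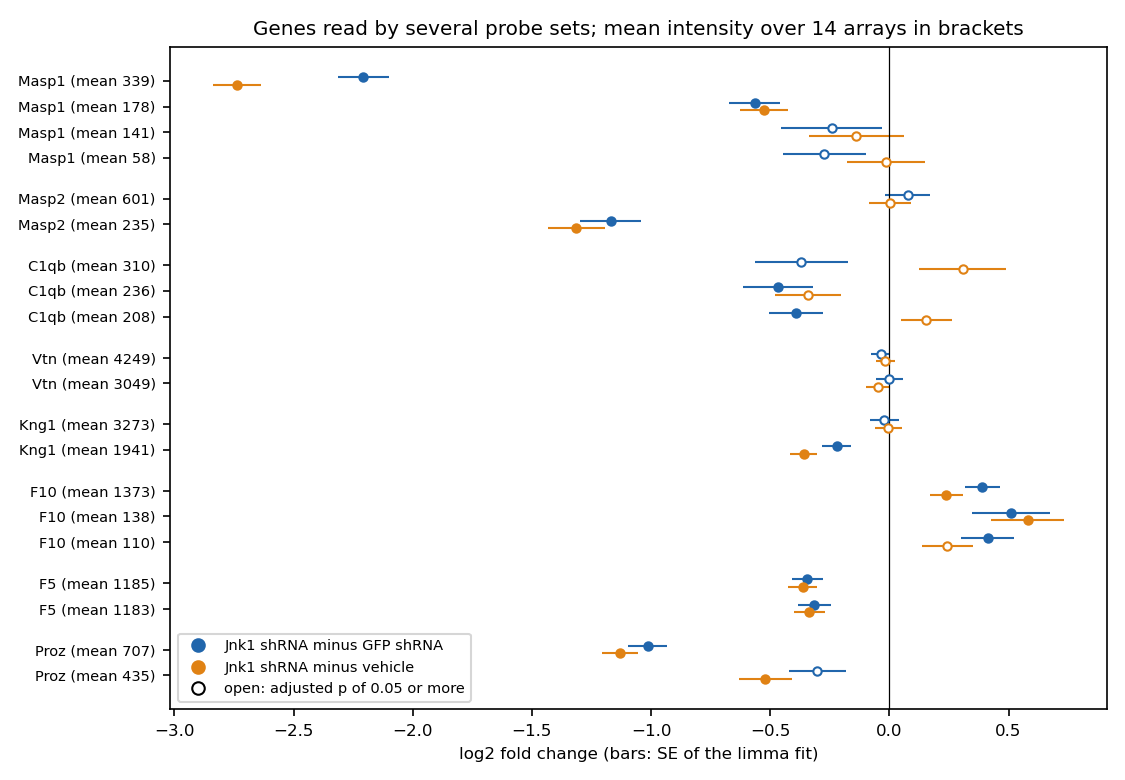
Log2 fold changes of every tested probe set of the genes with several, in Jnk1 shRNA (n = 5) minus GFP shRNA (n = 4, blue) and minus vehicle (n = 5, orange) livers, with the mean intensity over all 14 arrays in brackets. Bars are the standard error of the limma fit and open points have an adjusted p of 0.05 or more. The probe sets of F5 lie close together in both comparisons and those of F10 against GFP shRNA only, while those of Masp1, Masp2 and Proz spread widely.

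The scaling of the arrays decided several of the smaller calls. Scaling to the same median moved the median of all probe sets between Jnk1 shRNA and GFP shRNA to 0.09, from −0.01 with quantile normalization, and the share of called probe sets that were higher to 72.2%, from 52.3%. Under it 8 of the 40 genes were lower in Jnk1 shRNA than in GFP shRNA livers in place of 16. Of the 21 genes called against GFP shRNA, 12 kept their call in all 3 scalings and 9 under all 25 alternatives, and of the 21 called against vehicle these numbers were 16 and 13.

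**Figure D5:**
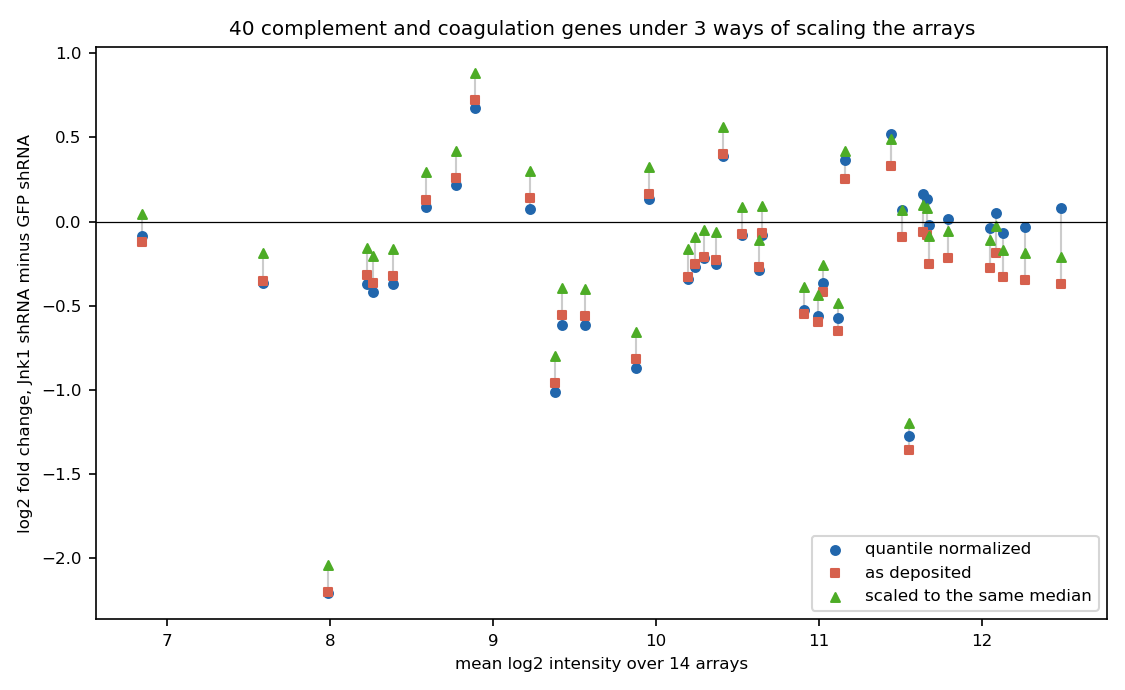
Log2 fold change between Jnk1 shRNA (n = 5) and GFP shRNA (n = 4) livers of the 40 genes against their mean log2 intensity over 14 arrays, after quantile normalization (blue circles), as deposited (red squares) and scaled to the same median (green triangles), with a grey line joining the values of 1 gene. The 3 values of a gene differ by a median of 0.20 and by up to 0.45 (Fgb), beside an interquartile range of 0.46 between the genes after quantile normalization, and 9 genes change sign. For the 3 fibrinogen genes at the bright end quantile normalization gives the highest, as for Fgb at 0.08 against −0.37 as deposited.

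Counts in the further lists stand beside the share of all probe sets, of which 15.8% were called lower and 17.3% higher against GFP shRNA and 18.7% lower and 18.9% higher against vehicle, and no list was tested as a set. Of 18 other complement genes tested, 7 were lower (38.9%) and 0 higher in Jnk1 shRNA than in GFP shRNA livers (median −0.11), and 7 were lower and 3 higher (16.7%) than in vehicle livers (median −0.05). The share called in either direction against GFP shRNA was thus near the 33.1% of all probe sets. Susd4, a complement inhibitor of the cell surface, fell in both comparisons (−1.85 ± 0.19 against GFP shRNA, adjusted p = 3e-06, and −2.10 ± 0.18 against vehicle, adjusted p = 2.46e-07). Cpn2, the carrier subunit of the carboxypeptidase that inactivates C3a and C5a, fell by 1.09 ± 0.08 (adjusted p = 9.28e-08) against GFP shRNA and by 1.23 ± 0.07 (adjusted p = 6.13e-09) against vehicle. C1ra and C1s1, the proteases of C1, were picked out after their values were seen. C1ra differed from GFP shRNA by 0.15 ± 0.06 (adjusted p = 0.0826) and rose against vehicle by 0.38 ± 0.06 (adjusted p = 0.000127). C1s1 differed from GFP shRNA by 0.03 ± 0.06 (adjusted p = 0.719) and rose against vehicle by 0.29 ± 0.06 (adjusted p = 0.000674). Like C2, C1s1 was also higher in GFP shRNA than in vehicle livers (0.26 ± 0.06, adjusted p = 0.0286), which was lost in 11 of 25 alternatives, among them leaving out array 2, 3 or 5 of GFP shRNA or array 3, 4 or 5 of vehicle (0.24 to 0.28).

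Of 17 other clotting genes tested, 7 were lower (41.2%) and 1 higher in Jnk1 shRNA than in GFP shRNA livers (median −0.34), and 6 were lower (35.3%) and 0 higher than in vehicle livers (median −0.25). The share called in either direction was 47.1% against GFP shRNA and 35.3% against vehicle. Hrg, a plasma protein that binds plasminogen and heparin, fell by 0.54 ± 0.09 (adjusted p = 0.000169) against GFP shRNA and by 0.62 ± 0.08 (adjusted p = 1.79e-05) against vehicle. S100a10, which presents plasminogen at cell surfaces, fell by 0.77 ± 0.11 (adjusted p = 8.22e-05) against GFP shRNA and by 0.40 ± 0.11 (adjusted p = 0.00689) against vehicle. Fgl1, a fibrinogen-like protein of hepatocytes, fell by 0.96 ± 0.15 (adjusted p = 0.000137) against GFP shRNA and by 0.84 ± 0.14 (adjusted p = 0.00019) against vehicle.

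The vitamin K cycle, which regenerates the cofactor of the Gla proteases, gave 1 higher and 1 lower of 4 genes against GFP shRNA, and 1 higher and 3 lower against vehicle. Nqo1, a quinone reductase, rose by 0.94 ± 0.20 (adjusted p = 0.00214) against GFP shRNA and by 0.52 ± 0.19 (adjusted p = 0.0437) against vehicle. The call on Nqo1 against vehicle was lost in 11 of 24 alternatives, among them leaving out any array of Jnk1 shRNA or vehicle but the first, or array 5 of GFP shRNA (0.35 to 0.63). Cyp4f14, a P450 of the family that degrades vitamin K in humans, fell by 0.42 ± 0.12 (adjusted p = 0.0124) against GFP shRNA and by 0.62 ± 0.11 (adjusted p = 0.000328) against vehicle. Vkorc1, the epoxide reductase that warfarin blocks, differed by −0.05 ± 0.09 from GFP shRNA and fell by 0.26 ± 0.08 against vehicle (adjusted p = 0.0225), a call lost without array 2 or 4 of Jnk1 shRNA or array 2 of vehicle (−0.34 to −0.21).

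Of 23 transcription factors, receptors and signalling proteins known to act on hepatic clotting and complement genes, 6 were lower and 3 higher in Jnk1 shRNA than in GFP shRNA livers (39.1% called, median −0.23), and 11 were lower and 1 higher than in vehicle livers (52.2% called, median −0.31). Hnf4a, a nuclear receptor that drives many of these promoters, had medians of 1172 in Jnk1 shRNA livers, 1690.0 in GFP shRNA livers and 1760.1 in vehicle livers, and fell by 0.52 ± 0.07 (adjusted p = 2.94e-05) against GFP shRNA and by 0.58 ± 0.07 (adjusted p = 3.62e-06) against vehicle. Jak1, a kinase of interleukin-6 signalling, fell by 0.70 ± 0.08 (adjusted p = 8.67e-06) against GFP shRNA and by 0.44 ± 0.08 (adjusted p = 0.000261) against vehicle. Ghr, the growth hormone receptor, fell by 0.36 ± 0.07 (adjusted p = 0.000763) against GFP shRNA and by 0.31 ± 0.07 (adjusted p = 0.00117) against vehicle.

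Acute phase genes, which inflammation raises in hepatocytes together with several clotting genes, were called in both directions. Of 22 tested, 3 were higher and 7 lower against GFP shRNA (45.5% called, median −0.29), and 5 were higher and 8 lower against vehicle (59.1% called, median −0.22). Saa3, a serum amyloid that macrophages and fat also make, spanned 429 to 939 in Jnk1 shRNA livers, 84.0 to 160.2 in GFP shRNA livers and 51.0 to 268 in vehicle livers. It rose by 2.37 ± 0.38 (adjusted p = 0.000179) against GFP shRNA and by 2.66 ± 0.36 (adjusted p = 2.35e-05) against vehicle. Orm1, an acid glycoprotein of hepatocytes, fell by 0.32 ± 0.09 (adjusted p = 0.0132) against GFP shRNA and by 0.47 ± 0.09 (adjusted p = 0.000371) against vehicle.

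Markers of the hepatocyte were bright in all samples, as the tissue label requires. Of 11 tested, 4 were lower and 0 higher against GFP shRNA (36.4% called), and 6 were lower and 0 higher against vehicle (54.5% called). All 11 were bright, and of the bright probe sets 49.6% and 54.8% were called in these comparisons, 24.1% and 27.5% lower. The share called was thus not above that of other bright probe sets. The summed intensity of the 11 was 51195 to 52645 in Jnk1 shRNA livers, 54225 to 55761 in GFP shRNA livers and 53698 to 57154 in vehicle livers. Hpd, of tyrosine breakdown, fell by 0.26 ± 0.04 (adjusted p = 0.00023) against GFP shRNA and by 0.33 ± 0.04 (adjusted p = 8.9e-06) against vehicle. Tat, of the same pathway, fell against vehicle (−1.10 ± 0.17, adjusted p = 7.2e-05), with −0.40 ± 0.18 against GFP shRNA (adjusted p = 0.0922). Cyp2e1, an ethanol-oxidising P450, fell by 0.14 ± 0.04 (adjusted p = 0.0173) against GFP shRNA and by 0.20 ± 0.04 (adjusted p = 0.00103) against vehicle. Without array 1 or 5 of GFP shRNA the first Cyp2e1 call was lost (−0.19 to −0.12 over all arrays left out). Alb, albumin, differed by −0.04 ± 0.05 from GFP shRNA and 0.01 ± 0.05 from vehicle.

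Markers of the liver's other cells also differed beside these results. Of 12 markers of liver endothelial cells, 5 were lower and 0 higher against GFP shRNA (41.7% called) and 7 lower and 0 higher against vehicle (58.3% called), with sums of 1278 to 1568 in Jnk1 shRNA livers, 1763 to 2162 in GFP shRNA livers and 1948 to 2041 in vehicle livers. Among them Stab2, a scavenger receptor, fell by 0.65 ± 0.09 against GFP shRNA (adjusted p = 4.95e-05) and 0.81 ± 0.09 against vehicle (adjusted p = 1.96e-06). Clec4g, a lectin, fell by 0.56 ± 0.09 against GFP shRNA (adjusted p = 0.000151) and 0.59 ± 0.08 against vehicle (adjusted p = 3.65e-05). Fcgr2b, an Fc receptor, fell by 0.67 ± 0.12 against GFP shRNA (adjusted p = 0.000662) and 0.51 ± 0.12 against vehicle (adjusted p = 0.00282). All 3 were lower than in both controls, but under same-median scaling the Clec4g difference from GFP shRNA was not called (−0.34, adjusted p = 0.0667). Of 9 stellate cell markers, 6 were lower against GFP shRNA (66.7%) and 3 against vehicle (33.3%) and 0 were higher in either, with sums of 1945 to 2149 in Jnk1 shRNA livers, 2721 to 3177 in GFP shRNA livers and 2442 to 2855 in vehicle livers. Reln, a stellate cell glycoprotein, fell by 0.95 ± 0.09 against GFP shRNA (adjusted p = 1.07e-06) and 1.06 ± 0.08 against vehicle (adjusted p = 9.73e-08). Dcn, a matrix proteoglycan, fell by 0.45 ± 0.07 against GFP shRNA (adjusted p = 0.000128) and 0.34 ± 0.07 against vehicle (adjusted p = 0.000592). Col3a1, a collagen, differed by −0.32 ± 0.13 from GFP shRNA (adjusted p = 0.0728) and 0.32 ± 0.12 from vehicle (adjusted p = 0.0521), and was higher in GFP shRNA than in vehicle livers by 0.64 ± 0.13 (adjusted p = 0.0131). With arrays scaled to the same median, the calls against GFP shRNA were lost for Cyp4f14, Hnf4a, Ghr, Orm1, Hpd, Cyp2e1 and Dcn, at adjusted p-values from 0.0821 (Hnf4a, −0.36) to 0.326 (Cyp4f14, −0.20), each the highest over the gene's alternatives that give a p. The Hnf4a call against GFP shRNA was also lost with the median over its probe sets (−0.41).

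Of 5 platelet markers, 1 was called against GFP shRNA (beside 33.1% of all probe sets) and 2 against vehicle (beside 37.6%). Gp1bb fell by 0.46 ± 0.17 against GFP shRNA (adjusted p = 0.0476) and by 0.50 ± 0.16 against vehicle (adjusted p = 0.0211), and Pf4, a platelet chemokine, rose by 0.75 ± 0.21 against vehicle (adjusted p = 0.0109). The call on Gp1bb against GFP shRNA was lost in 14 of 25 alternatives, among them leaving out array 1, 2 or 4 of Jnk1 shRNA, 2, 3 or 5 of GFP shRNA, or 2, 4 or 5 of vehicle (−0.59 to −0.38), and that against vehicle without array 4 of Jnk1 shRNA or array 1 of vehicle (−0.59 to −0.41). Itga2b was not called. Of 4 neutrophil markers, 0 were called in any comparison by limma, S100a8, Ngp and Mmp8 among them, at adjusted p-values from 0.0603 upward, with 1 at an unadjusted p under 0.05 against GFP shRNA and 1 against vehicle. Of 6 adipocyte markers, 0 were called by limma against GFP shRNA, with 2 at an unadjusted p under 0.05. Against vehicle 3 were called (beside 37.6% of all probe sets): Cidec, a lipid droplet protein, rose by 1.56 ± 0.28 (adjusted p = 0.000374), Car3 by 0.13 ± 0.04 (adjusted p = 0.0203), and Retn fell by 0.92 ± 0.34 (adjusted p = 0.0445). The Car3 call was lost without array 2 of Jnk1 shRNA or array 2 of vehicle (0.10 to 0.15), and its sign turned with the arrays as deposited (−0.32). The Retn call was lost without array 2, 3 or 4 of Jnk1 shRNA, array 5 of GFP shRNA or array 1, 2, 4 or 5 of vehicle (−1.06 to −0.61). The summed level was 278 to 351 for platelet markers in Jnk1 shRNA livers, against 296 to 455 in GFP shRNA livers and 235 to 375 in vehicle livers. For neutrophil markers it was 209.8 to 315 in Jnk1 shRNA livers, against 223 to 349 in GFP shRNA livers and 230.1 to 355 in vehicle livers, and for adipocyte markers 6216 to 7007 in Jnk1 shRNA livers, against 5866 to 6182 in GFP shRNA livers and 5668 to 6085 in vehicle livers. Only 1 of the 6 adipocyte markers tested was bright, so their sum may follow that gene more than the rest. The part of these cell types in the complement and coagulation values was not tested.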

How the data were processed

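The deposited data were linear intensities of 22690 probe sets for each of 14 arrays, and from the values each array had been scaled to a common mean after 2% of probe sets were trimmed at either end. The sources used here give no software, background correction or detection calls for these intensities. Whole pulverized tissue had been extracted and the RNA labelled with biotin, per the labels' protocols.

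Array medians spanned 0.48 on the log2 scale, so arrays were quantile normalized. Intensities under the 5th percentile (2.01) were raised to it, log2 was taken, and 64 control probe sets and the dimmest 40% of the other 22626 were left out, leaving 13575. With limma 3.58.1 in R 4.3.3, 3 group means were fitted to all 14 arrays (11 residual degrees of freedom), variances were moderated along intensity, and Benjamini-Hochberg adjustment ran over all 13575. The fit was tested on simulated data with 200 probe sets changed in the Jnk1 shRNA group. Against GFP shRNA it called, in the right direction, 34.3% of changes of 0.5 log2, 80.6% of those of 1 and 100% of those of 2. Against vehicle it called 29.9%, 80.6% and 95.5%, so many changes of 0.5 were missed. Fewer probe sets were changed than were called in the real data, so these shares may not carry over. Precision is limited by the number of arrays. Gene symbols are from the platform annotation, under which 20393 probe sets had 1 symbol, 691 several and 1606 none. Promoters and gene neighbours are from RefSeq, GRCm38.p6.

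The genes, the 12 further lists (212 entries) and the tests were chosen with earlier results of these data known. Values on every array were given for genes called in any comparison with an absolute log2 difference of at least 0.58, and in each further list for the 3 genes with the smallest p as differences. Alternatives were other scalings, filters, a pseudocount of 16, variance models, array weights, the spike-in level as covariate, 2-group fits, the median over a gene's probe sets (called where most of them were, with no p), a replicate block and the omission of each array in turn. Same-numbered arrays did not deviate together: the correlations of their deviations from the group means lay between −0.24 and 0.12, so the numbers were not taken to pair samples.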

Additional observations from a re-analysis of the deposited data

Results flagged for a closer look

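A single array that lay far from the others of its group was found in 11 of the 231 combinations of gene and group tested, by the gap to its nearest neighbour over the group's range. Chance gives about 1 in 20, and 1 of the 11 was in Jnk1 shRNA, 6 in GFP shRNA and 4 in vehicle livers. Among the complement and coagulation genes, C8g was highest on Jnk1 shRNA array 1, at 3130 against 2900 on the nearest array. C1qb was lowest on GFP shRNA array 5, at 297 against 414, and Pros1 on GFP shRNA array 2, at 174 against 224. Kng1 was lowest on vehicle array 4, at 2840 against 3290, and F10 highest on vehicle array 2, at 1560 against 1310.

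Among genes of the further lists, Cyp4f14 was lowest on GFP shRNA array 5, at 676 against 786, and C1ra highest on that array, at 917 against 867. Orm1 was highest on GFP shRNA array 2, at 2410 against 2090, and Clec4f lowest on GFP shRNA array 1, at 80.2 against 117. On vehicle array 2, Fgl1 was highest, at 3840 against 2190, and Mmp8, at 20.5 against 32.3, was lowest.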

How the results depend on the processing

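Without 1 array at a time, the complement and coagulation genes higher in Jnk1 shRNA than in GFP shRNA livers numbered 4 to 6 and those lower 14 to 18. Against vehicle they numbered 7 to 8 and 14 to 15, and between GFP shRNA and vehicle 0 to 2 and 0 to 1, with 0 lower without GFP shRNA replicate 5. As deposited, 3 genes were higher and 24 lower in Jnk1 shRNA than in vehicle livers. With the same median, 3 were higher than in vehicle and 8 lower than in GFP shRNA livers. Adjusted for the spike-in level, 3 were higher than in GFP shRNA, 4 higher than in vehicle, and 2 lower in GFP shRNA than in vehicle livers. C2, the 1 gene higher in GFP shRNA than in vehicle livers, was lost (0 genes) with the same median, no filter, no intensity trend, 2 groups only and the replicate block, and Masp1, the 1 lower, was lost (0 genes) with the median over probe sets (0.072).

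As deposited, these log2 differences changed sign: against GFP shRNA Cfi was −0.062, F2 −0.22, Fgb −0.37 and Car3 −0.33, and against vehicle Cfi −0.095, Fga −0.29, Fgb −0.40 and Car3 −0.32. With the same median, Cfi was −0.066, Fgb −0.37 and Car3 −0.29 against vehicle. The cause was not tested. With the replicate number as a block, which does not pair the samples, 5 genes were higher and 14 lower against GFP shRNA, 7 and 14 against vehicle, and 0 and 1 in GFP shRNA against vehicle. Without detection calls, how far dim genes such as Cfp and Pros1 stood above background is unknown.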
